A study of Homo sapiens with 6 samples.

Results

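ATP-binding cassette (ABC) transporter genes were followed in MCF10A cells, an immortalised, non-tumorigenic human mammary epithelial line, with raised flotillin levels. The MCF10AF1F2 line stably co-expressed HA-tagged flotillin 1 and mCherry-tagged flotillin 2 after infection with a retroviral vector for each and selection with puromycin and hygromycin. The MCF10AmCherry line, its control, stably expressed mCherry from a retroviral vector and was selected with puromycin alone. Both lines were grown in the same medium with horse serum, insulin, EGF, hydrocortisone and cholera toxin, and polyadenylated RNA was sequenced in 3 samples per line. Each group is a single stable line, so flotillin level, number of vectors and the added hygromycin cannot be told apart. Whether the 3 samples of a line were grown as separate cultures is not stated, so p-values here reflect only how far these samples scatter, part of which may be technical.

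Members were taken as protein-coding genes whose symbol is ABC, a letter from A to G and digits. In all, 52 of the 52401 genes in the deposited table met this rule, for 46 distinct symbols. The other 6 are further copies of ABCF1 on alternative chromosome 6 haplotypes, each listed at 0 in both groups, and ABCF1 is described below by its copy on the main chromosome. CFTR, TAP1 and TAP2 are ABC proteins by structure but carry other symbols and are no members here.

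ABC transporters couple the binding and breakdown of ATP at conserved nucleotide-binding domains to the movement of a substrate across a membrane. Subfamily A moves lipids, B and C hold the multidrug and conjugate exporters together with transporters of mitochondria and lysosomes, D serves peroxisomes and lysosomes, and G moves sterols and drugs. Subfamilies E and F keep the ATP-binding domains but lack membrane segments and act in translation. In epithelia, several members sit on either the apical or the basolateral surface.

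The introduced genes checked the labels. FLOT1 had 17243, 14137 and 18932 normalized counts in flotillin libraries, against 1898, 1359 and 1166 in control libraries, 11.4-fold higher. FLOT2 had an authors' mean of 41052 in flotillin cells and 3727 in control cells. Reads of the introduced and the cells' own copies are counted together. A normalized count is the number of reads of a gene in a library divided by that library's size factor. The deposited columns are means of 3 libraries, and the reads of single libraries were recovered from their digits, between 18666274 and 19782335 reads per library. These libraries cannot be matched to the numbered samples and are written library 1, 2 and 3 of a line, sorted from the highest size factor down. Libraries of the lines that share a number are not known to be pairs. Of 9 epithelial markers 8 were tested and 6 fell, and the 8 that could be recovered summed to 7992 to 9326 in flotillin libraries and 66179 to 77054 in control libraries. KRT5, a basal keratin, had authors' means of 67351 in flotillin and 48381 in control cells. KRT8 had 3494 and 2043, and neither was called. KRT18 was listed at 0 in both lines, and the cause was not tested. Of 6 fibroblast markers 5 were tested, with 3 higher and 1 lower, and the 5 that could be recovered summed to 205 to 253 in flotillin libraries and 217 to 409 in control libraries. DCN, a fibroblast proteoglycan, was not recovered and had authors' means of 42467 in flotillin and 4659 in control cells. PTPRC, the pan-leukocyte gene, averaged 0.343 and 2.56 normalized counts in flotillin and control cells, CD3E was listed at 0, and CDH5 of endothelium averaged 0.333 and 0.956. CD68, a macrophage marker, averaged 1309 and 753, and KDR, an endothelial receptor gene, 588 and 641 in flotillin and control cells, and neither was called. The part of these marker differences in the results below was not tested.

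Flotillin cells held fewer transcripts of the keratinocyte lipid transporter ABCA12, the conjugate exporter ABCC2 and the porphyrin transporter ABCB6, and more of ABCA8 and ABCD2. Of the 46 members, 38 had an adjusted p in the authors' deposited table, 15 of them under 0.05, with 11 lower and 4 higher. The share called was 39.5% of tested members, where 23.6% of all tested genes and 27.4% of protein-coding ones were called. By direction, 28.9% of tested members fell and 10.5% rose, beside 12% and 11.6% of all tested genes. Over the 38 tested members the median deposited log2 fold change was -0.30, against -0.04 for all tested genes. Over the 27 members with a mean of at least 100 it was -0.55, against 0.11 for all 11463 genes at that level. These counts describe the list, and no test of the list itself was made. In bulk RNA, fewer cells of a type and less RNA per cell cannot be told apart.

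**Figure D1:**
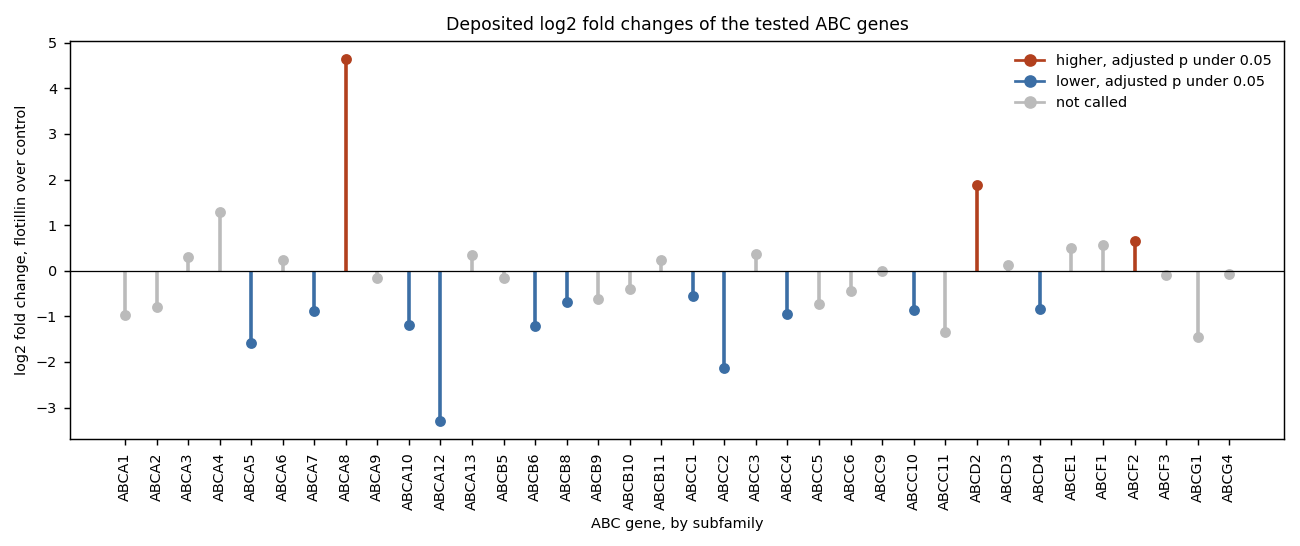
Deposited log2 fold change, flotillin over control, for 36 of the tested members, ordered by subfamily along the x axis. Red marks the 3 drawn members called higher, blue the 11 called lower at an adjusted p under 0.05, and grey the 22 others; ABCA8 stands at 4.65 and ABCA12 at -3.30.

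Levels between genes were compared in FPKM, fragments per kilobase of transcript scaled by library size, from the second deposited table, which gives a value per line. At least 1 FPKM was reached by 28 members in flotillin cells and 27 in control cells, 29 in either. ABCC3, a basolateral exporter of conjugated organic anions, led both lines, with 566.6 FPKM in flotillin cells and 479.3 in control cells. It made up 51.1% of the summed FPKM of all members in flotillin cells and 36.9% in control cells. ABCC2, the apical relative of ABCC3, ranked 12th at 21.8 FPKM in flotillin cells and second at 118 FPKM in control cells. ABCE1, a ribosome recycling factor, ranked second in flotillin cells at 89.97 FPKM, and was at place 5 in control cells at 64.7 FPKM. Without ABCC3 the members summed to 542.3 FPKM in flotillin cells and 820.5 FPKM in control cells. In normalized counts, the members other than ABCC3 summed to 38095, 39619 and 38335 in flotillin libraries, against 61888, 69646 and 50576 in control libraries. All 3 of these flotillin sums lay below all 3 control sums. With ABCC3 included the sums were 70549, 70842 and 56419 in flotillin libraries, against 86394, 97396 and 60258 in control libraries. These overlapped, since control library 3 lay below flotillin libraries 1 and 2. In FPKM all members summed to 1109 in flotillin cells and 1300 in control cells.

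**Figure D2:**
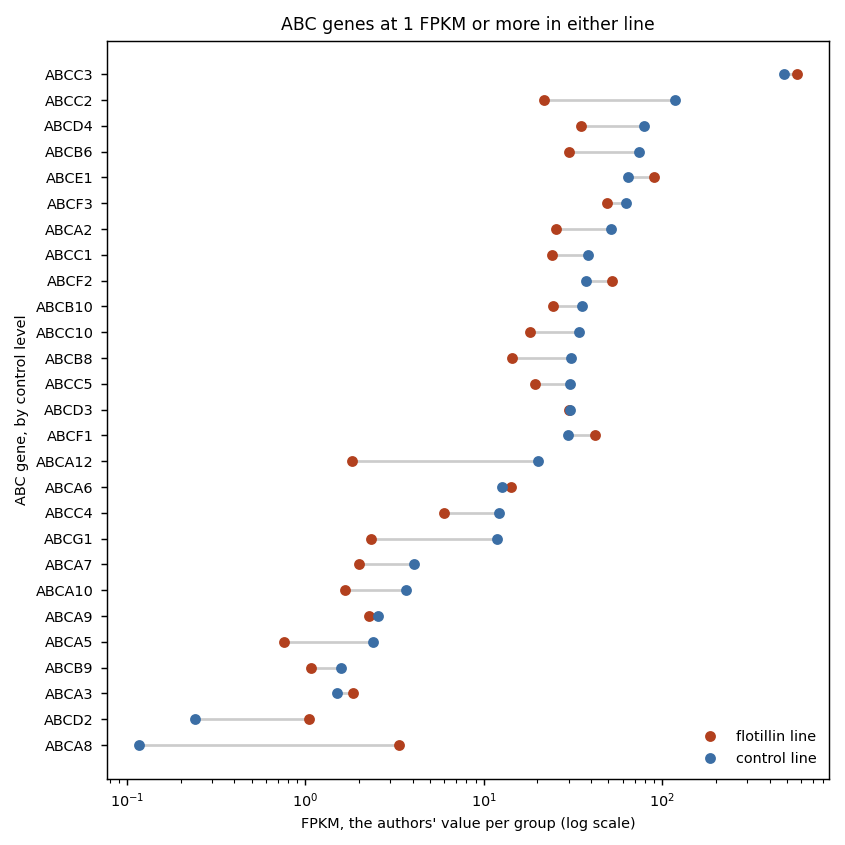
FPKM of 27 members at 1 FPKM or more in either line, on a log scale, ordered by their level in control cells, with the authors' value for the flotillin line in red and for the control line in blue. ABCC3 lies above every other member in both lines, and ABCC2 and ABCA12 show wide gaps with the flotillin line lower.

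Subfamily A held 1 rise and 4 falls among 12 tested members. ABCA12 loads lipids into the lamellar granules of keratinocytes, and its loss causes harlequin ichthyosis. It had 463, 475 and 415 normalized counts in flotillin libraries, against 5179, 4588 and 4256 in control libraries. The 2 sets of libraries were far apart, with little spread in either. The means were 451 ± 31.7 and 4674 ± 468 (SD, n = 3), 10.4-fold lower in flotillin cells, and the deposited log2 fold change was -3.30 (DESeq2 adjusted p = 2.66e-51). ABCA12 was 10.2-fold lower between library 3 of each line and 10.4-fold lower between the means of libraries 1 and 2 of each line. Its locus in GRCh37 is chromosome 2, 215796266 to 216003151, and the locus joins other annotated genes.

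ABCA8, a transporter linked to cholesterol and sphingomyelin handling, had 551, 530 and 304 normalized counts in flotillin libraries, against 9.49, 23.0 and 7.90 in control libraries. The lowest flotillin library was over 10 times the highest control library. This was a 34.3-fold rise (deposited log2 fold change 4.65, DESeq2 adjusted p = 8.04e-27). Even so, its level stayed modest, at 3.35 FPKM in flotillin and 0.118 FPKM in control cells. ABCA8 was 1 of 2 members that went across 1 FPKM upward, the other being ABCD2.

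ABCA5, found in lysosomes and late endosomes, had 173, 219 and 153 normalized counts in flotillin libraries, against 785, 627 and 332 in control libraries. No flotillin library reached the lowest control library, and the gene fell 3.20-fold (log2 fold change -1.58, DESeq2 adjusted p = 0.000124). ABCA7, a phospholipid transporter also linked to phagocytosis, had 316, 351 and 216 in flotillin libraries, against 574, 542 and 556 in control libraries. It fell 1.89-fold (DESeq2 adjusted p = 0.00637), but its Tuxedo q-value was 0.815, in a locus that joins 22 genes. ABCA10 had 99.0, 84.1 and 88.4 in flotillin libraries, against 205, 272 and 163 in control libraries, and fell 2.35-fold (DESeq2 adjusted p = 0.000962).

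The other A members were not called. ABCA2, a lipid transporter of endosomes and lysosomes, had 2085, 1916 and 1792 normalized counts in flotillin libraries, against 5449, 2892 and 2131 in control libraries. The libraries did not overlap, yet the control libraries differed widely among themselves, and the DESeq2 adjusted p was 0.0785. ABCA1, the exporter of cholesterol and phospholipid to apolipoprotein A-I, was scarce, with 15, 26.3 and 15.4 in flotillin libraries, against 46.5, 72.7 and 9.87 in control libraries. Its order turned between libraries, since control library 3 lay below every flotillin library (DESeq2 adjusted p = 0.202). ABCA3, of surfactant lamellar bodies, averaged 272 ± 179 and 214 ± 124 (SD, n = 3) in flotillin and control cells. ABCA4, the retinoid transporter of photoreceptors, had 41 reads over the flotillin libraries and 12 over the control libraries, and ABCA13 had 36 and 28. Neither was called.

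ABCA8, ABCA9, ABCA6, ABCA10 and ABCA5 lie next to each other on chromosome 17, in that order from 66863433 to 67323323 in GRCh37. They did not move as a block, with 1 rise, 2 falls and 2 members not called. ABCA6 had 2289, 1815 and 1131 normalized counts in flotillin libraries, against 1172, 2789 and 413 in control libraries. ABCA9 had 309, 272 and 93.6 in flotillin libraries, against 268, 485 and 27.6 in control libraries. Both overlapped between the lines and were lowest in library 3 of each. The 95% intervals of their limma log2 differences ran from -0.99 to 2.18 for ABCA6 and from -2.15 to 2.88 for ABCA9, too wide to show either a change or its absence. In the second table ABCA10 and ABCA5 share a joined locus, so reads where they meet are uncertain.

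**Figure D3:**
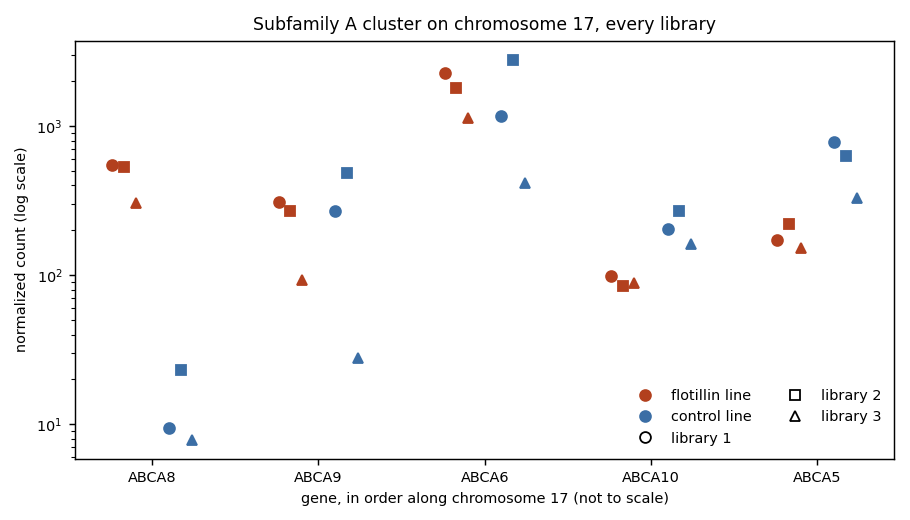
Normalized counts of the 5 neighbouring subfamily A genes in every recovered library on a log scale, in their order along chromosome 17, with the flotillin line (red) left of the control line (blue) and a marker shape for each library. ABCA8 is higher and ABCA10 and ABCA5 are lower in all flotillin libraries, while ABCA9 and ABCA6 overlap and show library 3 lowest in both lines.

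RefSeq promoters (GRCh38.p14, 250 bases before to 50 after the start) matched 35 of the 46 members, and those without a match included ABCA4, ABCA8, ABCB4, ABCB5, ABCC1, ABCC3, ABCC8, ABCC13 and ABCG1. The windows of 4 of them, from members with large calls in either direction, are printed so that their composition can be compared, with capitals marking CAGGTG, an E-box that ZEB and SNAI repressors are known to bind. ABCA12 lies at chr2:215138577-215138876, ABCA5 at chr17:69327084-69327383 and ABCD2 at chr12:39619754-39620053, all on the minus strand, and ABCC2 at chr10:99782390-99782689 on the plus strand.
ABCA12: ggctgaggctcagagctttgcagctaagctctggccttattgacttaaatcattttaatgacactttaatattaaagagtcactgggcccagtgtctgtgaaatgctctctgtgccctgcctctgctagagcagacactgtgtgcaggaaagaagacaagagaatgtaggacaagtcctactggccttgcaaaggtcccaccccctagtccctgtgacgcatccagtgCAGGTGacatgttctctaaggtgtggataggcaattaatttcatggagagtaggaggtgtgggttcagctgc
ABCA5: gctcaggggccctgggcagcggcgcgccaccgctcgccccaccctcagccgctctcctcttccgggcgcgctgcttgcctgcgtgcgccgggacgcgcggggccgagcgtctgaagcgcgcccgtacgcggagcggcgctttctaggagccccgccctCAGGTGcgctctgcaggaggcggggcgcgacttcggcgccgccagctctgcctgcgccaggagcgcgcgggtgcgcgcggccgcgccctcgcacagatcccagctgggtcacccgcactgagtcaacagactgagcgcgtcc
ABCC2: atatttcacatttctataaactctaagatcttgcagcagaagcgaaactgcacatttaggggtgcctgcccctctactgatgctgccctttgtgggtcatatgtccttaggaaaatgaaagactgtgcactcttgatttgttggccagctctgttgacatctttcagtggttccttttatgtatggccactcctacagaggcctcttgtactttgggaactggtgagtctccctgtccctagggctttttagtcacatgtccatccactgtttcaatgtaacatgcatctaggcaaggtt
ABCD2: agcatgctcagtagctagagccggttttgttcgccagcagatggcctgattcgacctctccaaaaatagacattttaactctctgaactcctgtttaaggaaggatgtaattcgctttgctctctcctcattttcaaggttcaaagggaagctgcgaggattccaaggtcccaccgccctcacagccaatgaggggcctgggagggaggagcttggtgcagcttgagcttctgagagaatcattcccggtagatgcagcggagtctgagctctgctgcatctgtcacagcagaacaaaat
ABCA12 has the E-box 22 bases before its start and ABCA5 92 bases before, while the ABCC2 and ABCD2 windows hold none. The ABCA5 window is 76.3% G and C with 45 CpG dinucleotides, and those of ABCA12 and ABCC2 are 48.7% and 45.0% with 1 CpG each. On either strand CAGGTG was in 9 of the 35 member promoters (25.7%), beside 20.6% of all 35116 promoters of the same length. It was in 3 of the 10 matched members that fell, the third being ABCB8, and in 0 of the 2 matched that rose. The antioxidant response core TGACNNNGC was in 7 members (20.0%, against 13.3% of all), the AHR core GCGTG in 13 (37.1%, against 36.5%) and the GC box GGGCGG in 18 (51.4%, against 45.0%). CACGTG was in 4 members (11.4%, against 7.26%), TATAAA in 5 (14.3%, against 11.5%) and the direct repeat of AGGTCA with 4 bases between its copies, bound by LXR, in 0, with 0.0199% of all promoters holding it. GCGTG can overlap CACGTG at its edge. These are letter matches only.

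Subfamily C, which includes the multidrug resistance proteins, had 4 falls and no rise among 9 tested members. ABCC2, which exports glutathione, glucuronide and sulphate conjugates at the apical surface, had 3135, 2965 and 2747 normalized counts in flotillin libraries, against 15558, 19619 and 7369 in control libraries. The flotillin libraries were tightly grouped and the control ones were not, with library 3 lowest. The fall was 4.81-fold (log2 fold change -2.13, DESeq2 adjusted p = 4.49e-08). It was 5.77-fold between the means of libraries 1 and 2 of each line, and 2.68-fold between library 3 of each line.

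ABCC3 had 32454, 31222 and 18084 normalized counts in flotillin libraries, against 24506, 27750 and 9681 in control libraries. The lines overlapped, again with library 3 lowest in each. The means were 27253 ± 7965 and 20646 ± 9633 (SD, n = 3), with a deposited log2 fold change of 0.37 (DESeq2 adjusted p = 0.533). The 95% interval of the limma log2 difference, from -0.51 to 1.498, does not reach the fall of ABCC2, whose interval ran from -2.95 to -1.35. The ratio of ABCC3 to ABCC2 between the lines was not tested as such.

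ABCC1, a broad exporter of glutathione conjugates and drugs, had 4026, 3805 and 4408 normalized counts in flotillin libraries, against 6124, 5859 and 5998 in control libraries. The lines were clearly apart though the fall was only 1.47-fold (DESeq2 adjusted p = 0.0257, Tuxedo q-value 0.0394). ABCC4, which exports cyclic nucleotides and prostanoids, had 814, 839 and 1029 in flotillin libraries, against 1499, 2249 and 1544 in control libraries, and fell 1.97-fold (DESeq2 adjusted p = 0.00323). ABCC10, a relative able to export taxanes, had 773, 850 and 755 in flotillin libraries, against 1539, 1578 and 1291 in control libraries. It fell 1.85-fold (DESeq2 adjusted p = 0.000621), with no overlap. ABCC5, which exports cyclic nucleotides and antifolates, had 2120, 2058 and 1599 in flotillin libraries, against 2839, 4380 and 2543 in control libraries, without overlap and with a DESeq2 adjusted p of 0.0504. ABCC9, a regulator of ATP-sensitive potassium channels, averaged 21.3 ± 2.0 and 21.5 ± 8.0 in flotillin and control cells (SD, n = 3).

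**Figure D4:**
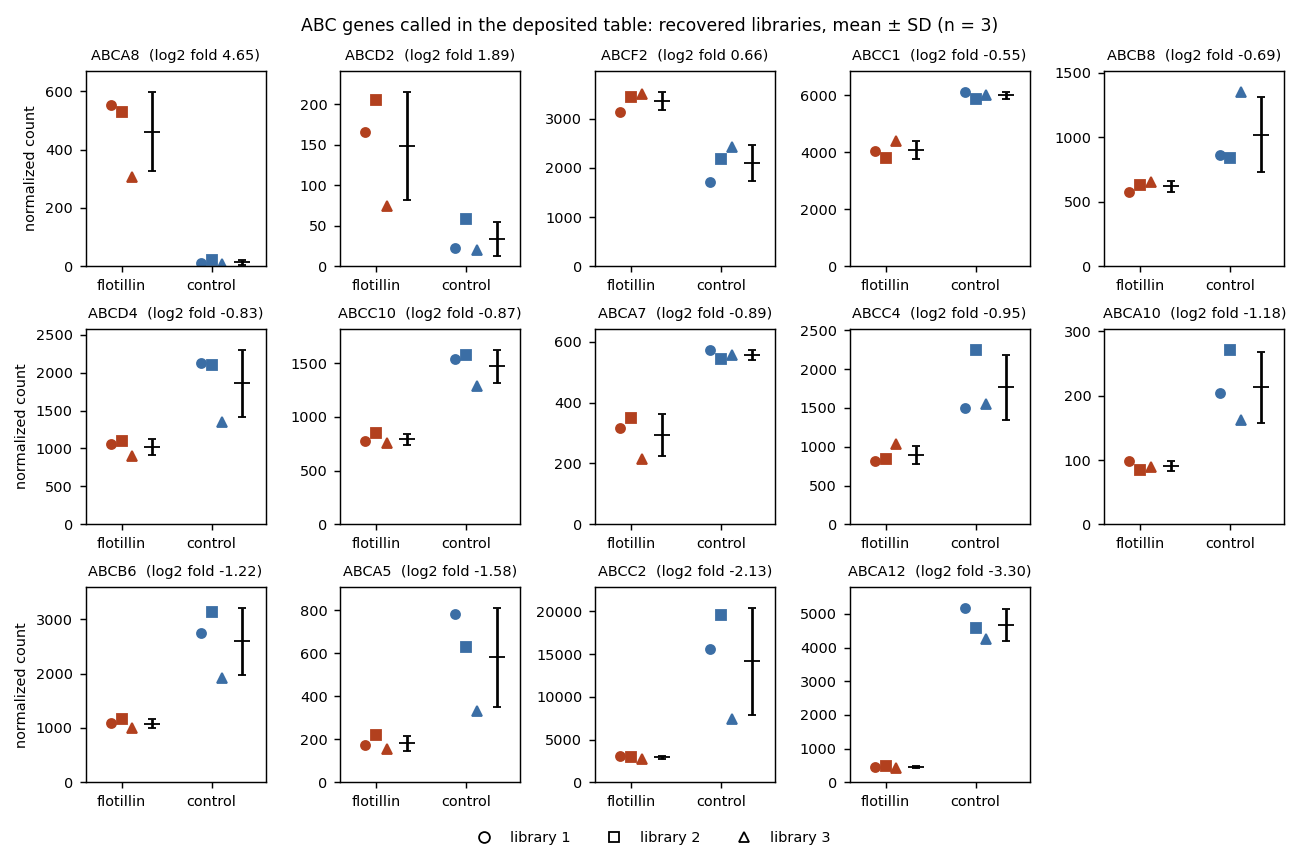
Normalized counts of 14 called members in each recovered library, flotillin libraries in red left of control libraries in blue, with mean ± SD (n = 3) in black; every y axis starts at 0 and panels run from the highest to the lowest deposited log2 fold change. In all 14 panels the flotillin libraries lie entirely above or entirely below the control libraries.

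Subfamily B had 2 falls among 7 tested members, both in transporters of mitochondria and related membranes. ABCB6, a porphyrin transporter, had 1090, 1157 and 998 normalized counts in flotillin libraries, against 2736, 3125 and 1924 in control libraries. Every flotillin library was below every control library, a 2.40-fold fall (log2 fold change -1.22, DESeq2 adjusted p = 5.77e-05), although the Tuxedo q-value was 0.108. ABCB8, of the inner mitochondrial membrane, had 572, 631 and 652 in flotillin libraries, against 863, 840 and 1353 in control libraries. It fell 1.65-fold at the edge of the threshold (DESeq2 adjusted p = 0.0486) and was not called by limma on the recovered libraries (adjusted p = 0.0623). ABCB10, of erythroid heme synthesis, had 1818, 2069 and 3035 in flotillin libraries, against 2327, 2756 and 4142 in control libraries. It overlapped between the lines and was highest in library 3 of each, and it was not called. ABCB9, a lysosomal peptide transporter, averaged 64.4 ± 23.6 in flotillin and 102 ± 26.8 in control cells (SD, n = 3; DESeq2 adjusted p = 0.223).

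The drug pump gene ABCB1 had 1 read over the 3 flotillin libraries and 0 over the 3 control libraries, where a count of 0 allows up to 3 reads. Its neighbour ABCB4, a phosphatidylcholine transporter of bile, had 3 and 11 reads. ABCB11, the bile salt export pump, had 20 and 17 reads over the flotillin and control libraries, and ABCB5 37 and 44. ABCC8, ABCC12 and ABCG8 had no more than 1 read in either line, and ABCG5, ABCC13, ABCG4 and ABCC6 no more than 12. ABCC6 has pseudogene copies that can share its reads. At this depth no difference was detectable in these members. ABCC11, a lipophilic anion exporter, had 11 reads over the flotillin libraries and 38 over the control libraries. Its libraries did not overlap and it was 3.30-fold lower in flotillin cells, but it missed the threshold (DESeq2 adjusted p = 0.0893).

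Members of subfamily D, transporters of peroxisomes and lysosomes, did not move together. ABCD2, a peroxisomal importer of long-chain fatty acids, had 166, 205 and 74.0 normalized counts in flotillin libraries, against 22.8, 58.3 and 19.7 in control libraries. The lowest flotillin library stood above the highest control library, a 4.41-fold rise (log2 fold change 1.89, DESeq2 adjusted p = 0.000841). ABCD3, the abundant peroxisomal member for branched-chain substrates, had 2462, 2743 and 2623 in flotillin libraries, against 1873, 2550 and 2697 in control libraries. The lines overlapped and the limma log2 difference had a 95% interval from -0.29 to 0.59. ABCD4, which works in lysosomal cobalamin release, had 1057, 1100 and 905 in flotillin libraries, against 2123, 2103 and 1343 in control libraries. It fell 1.82-fold (DESeq2 adjusted p = 0.0125), the opposite direction to ABCD2.

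Among the 4 members that act in translation 1 was called, with a rise, where 23.6% of all tested genes were called. ABCF2 had 3144, 3439 and 3502 normalized counts in flotillin libraries, against 1708, 2176 and 2431 in control libraries. It rose 1.597-fold without overlap (log2 fold change 0.66, DESeq2 adjusted p = 0.0246). ABCF1, which binds initiation factor eIF2 and ribosomes, had 2625, 3161 and 3164 in flotillin libraries, against 1695, 2016 and 2243 in control libraries. It also did not overlap, but fell just short in the deposited table (DESeq2 adjusted p = 0.0504) and just passed in limma (adjusted p = 0.0496). ABCE1, which splits ribosomes after termination, had 4139, 4613 and 5590 in flotillin libraries, against 2374, 3191 and 4432 in control libraries. Library 3 was highest in each line, and the lines overlapped because control library 3 exceeded flotillin library 1 (DESeq2 adjusted p = 0.216). ABCF3 had 1703, 1821 and 1486 in flotillin libraries, against 1782, 2034 and 1512 in control libraries, overlapping, with a limma interval from -0.50 to 0.34. With counts scaled by the high genes only, the median of all genes was -0.10 on the log2 scale, against 0.04 with the authors' size factors, and limma then called 3 members higher and 11 lower, and ABCF1 was not among them.

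Subfamily G gave no call in the deposited table, and library 3 stood far from the others for both ABCG1 and ABCG2. ABCG1, which passes cholesterol to high-density lipoprotein, had 136, 264 and 41.1 normalized counts in flotillin libraries, against 1040, 923 and 104 in control libraries. Library 3 was lowest in both lines, and control library 3 lay below flotillin libraries 1 and 2. The mean was 4.68-fold lower in flotillin cells (deposited log2 fold change -1.45, DESeq2 adjusted p = 0.119), whereas the Tuxedo table called it lower (q-value 0.000804). Without library 3 of both lines ABCG1 was 4.90-fold lower (limma adjusted p = 0.000789), and without control library 3 alone the limma adjusted p was 0.0206. ABCG2, the breast cancer resistance protein gene, had 0, 2.03 and 10.3 in flotillin libraries, against 6.64, 10.5 and 84.9 in control libraries. Most of its 104 control reads came from library 3, and the deposited table gives it neither a p nor an adjusted p. It was not called by limma with all libraries (adjusted p = 0.135) or without control library 3 (adjusted p = 0.25), and passed without library 3 of both lines (adjusted p = 0.0352). Its Tuxedo q-value was 0.0478 at 0.0341 FPKM in flotillin and 0.458 FPKM in control cells.

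Library 3 often lay outside the range of libraries 1 and 2 in both lines, in members and in genes at large. Among the 34 members with a mean of at least 10, library 3 was below both other libraries in each line for 17 and above both in each line for 6, beside 24.7% and 28.0% of all 15908 such genes. The 17 included ABCC2, ABCC3, ABCA6, ABCA8, ABCA9, ABCA12, ABCD2 and ABCG1, and the 6 were ABCB8, ABCB10, ABCE1, ABCF1, ABCF2 and ABCG2. The same shares were not counted for libraries 1 and 2, and no label describes library 3 as different. Calls were counted again without library 3 and in a limma fit with a term shared by library 3 of both lines. The term was added after the data were seen. Limma with all libraries called 23.4% of all genes and both settings called more. They therefore do not measure the part of library 3 in the member calls. The fit with the term called 7 members higher and 16 lower of 34, where 46.0% of all genes were called. Without library 3 of both lines, limma called 6 members higher and 16 lower of 34 (64.7%), where 44.2% of all genes were called, 23.6% higher and 20.6% lower. Calls that the deposited table lacks were ABCE1 and ABCF1, higher, and ABCA1, ABCA2, ABCB9, ABCC5, ABCG1 and ABCG2, lower, while ABCB8 was no longer called. Libraries of the 2 lines did not overlap for 5 members above (14.7%) and 13 below (38.2%), beside 24.2% and 21.1% of all genes.

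**Figure D5:**
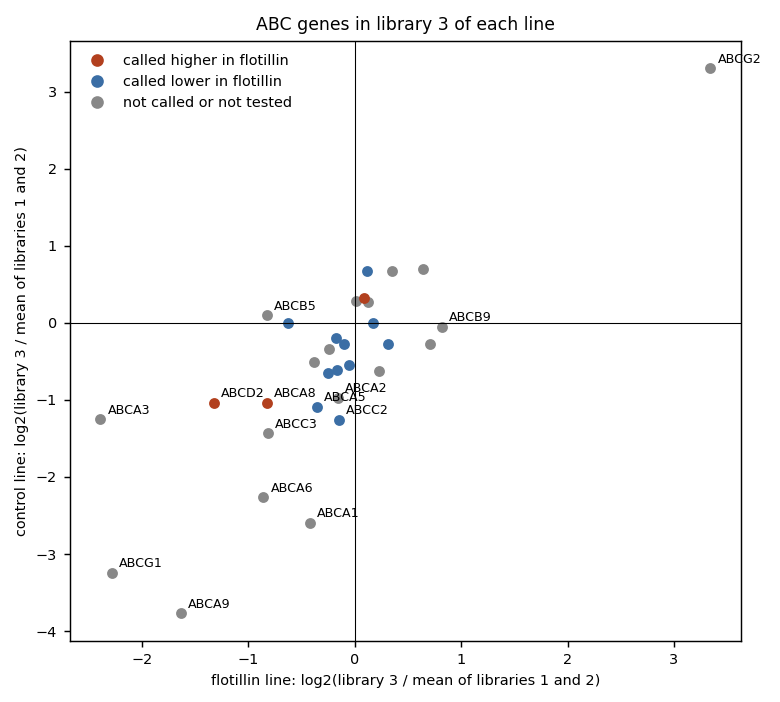
For members with a mean of at least 10 and a read in every term, the log2 ratio of library 3 to the mean of libraries 1 and 2 in the flotillin line (x axis) and in the control line (y axis), coloured by the deposited call. ABCG1, ABCA9 and ABCA3 lie far below 0 in both lines, and ABCG2 far above.

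The second pipeline and the limma fit gave related counts. Tuxedo tested 30 members and 11 had a q-value under 0.05 (36.7%, where 16.9% of all tested genes did), 2 higher and 9 lower, beside 6.93% and 10.0% of all tested genes. Of the 15 deposited calls 9 passed there in the same direction, and those that did not included ABCA7, ABCA10, ABCB6, ABCC10 and ABCF2. The limma fit of 34 members called 5 higher and 10 lower (44.1%, where 23.4% of all genes were called, 12.2% higher and 11.1% lower), and these took in 14 of the 15 deposited calls with their direction kept, all but ABCB8. The ABCA8, ABCA12, ABCB6 and ABCC2 calls held in each of the 6 limma fits that leave out 1 library, and the ABCC10 call in 5. The ABCD2 and ABCC4 calls held in 3 of these fits, ABCA5 in 2, ABCA7, ABCA10, ABCC1, ABCD4 and ABCF2 in 1 each, and ABCB8 in 0.

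Genes that work beside the members moved in their own ways. Of 16 genes of lipid efflux and liver X receptor (LXR) signalling 6 fell and 1 rose, with LPCAT3, a phospholipid remodelling enzyme, 5.73-fold lower and SREBF1, a lipogenic transcription factor, 2.19-fold lower. The LXR genes themselves, NR1H2 and NR1H3, were not called, at authors' means of 827 and 422 in flotillin and 466 and 469 in control cells. Of 11 tested epidermal barrier genes that share the pathway of ABCA12, 5 fell and 2 rose. Among the falls NIPAL4 averaged 8.42 ± 7.18 in flotillin and 661 ± 353 in control cells and TGM1 167 ± 86.8 and 1601 ± 1067 (SD, n = 3). Of 10 peroxisome genes 3 rose and 1 fell. PEX19, the import receptor that delivers ABCD proteins to the peroxisome, rose 2.50-fold (DESeq2 adjusted p = 4.27e-09), and SLC27A2, a very-long-chain acyl-CoA synthetase, fell 31.5-fold (DESeq2 adjusted p = 1.52e-51). 

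Among 10 tested glutathione and conjugation genes 3 rose and 1 fell. GCLM and GCLC, the subunits of the enzyme that limits glutathione synthesis, rose 2.49-fold and 1.78-fold, and NQO1, a quinone reductase, rose 3.53-fold. UGT1A6, a glucuronosyltransferase from a locus of overlapping genes, averaged 0.667 ± 1.155 normalized counts in flotillin and 144 ± 62.3 in control cells (SD, n = 3). Of 11 tested regulators of drug transporters 4 rose in the deposited table, among them NFE2L2 (1.64-fold), the antioxidant response factor, and its inhibitor KEAP1 (1.97-fold). Xenobiotic receptor gene NR1I2 was listed at 0, and AHR averaged 1014 ± 92.8 and 948 ± 90.6 in flotillin and control cells (SD, n = 3). Of 9 partners of the translation members 4 rose, including PELO and HBS1L, which act with ABCE1, at 1.78-fold and 1.84-fold. Of 10 iron-sulphur and heme genes 3 rose, among them FECH and ALAS1, and SLCO organic anion uptake genes had 2 falls among 5 tested, SLCO3A1 and SLCO4A1. In limma with all libraries the lipid efflux list had 3 calls in place of 7, and in the Tuxedo table the regulators, the peroxisome genes and the translation partners had 1 call each in place of 4. Without 1 library the translation partners had 0 limma calls in 5 of 6 fits and 7 in the fit without control library 3. Beside the deposited counts, 11.6% of all tested genes were called higher and 12% lower.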

How the data were processed

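RNA from 6 samples, 3 per line, was made into stranded mRNA libraries, per the labels. The submitters' processing notes name HISAT2 2.1.0, HTSeq 0.9.1, DESeq2 1.18.1 and, for the genome, GRCh37, but no annotation release. One deposited table holds a signal for each group, the mean size-factor-normalized count, with the authors' log2 fold change, p-value and adjusted p, per the file headers. The other, from a Tuxedo pipeline per its name, holds the authors' FPKM, log2 fold change, test score and q-value per group, per the file headers, and its loci, counted here from 1.

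Each group mean, deposited with 15 digits, adds 3 terms, 1 per library, a whole number of reads over 3 size factors each, and a search over whole numbers returned a single solution for 99.72% of flotillin and 99.75% of control means above 0. Means changed on purpose, 2000 per group, were solved in 0.05% of flotillin and 0.0% of control cases, and simulated reads were returned in 100.0% of cases. Size factors recomputed from the recovered reads differed by at most 0.034%. The 103 genes without a solution in both groups hold no member. Normalized counts per library and their SDs come from these reads.

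Calls are the authors' adjusted p under 0.05. As a second fit limma 3.58.1 (R 4.3.3, trend, robust, Benjamini-Hochberg adjustment) ran on log2(normalized count + 1) for the 15908 recovered genes with a mean of at least 10, all in one fit. On simulated data for this comparison over 15908 genes it called 76% of 100 genes changed 2-fold and 100% of 100 changed 4-fold. Of its calls there, 3.83% were false. The simulation changed only these 2-fold and 4-fold genes, where limma called 23.4% of all genes in the real libraries. It gave every gene the same dispersion, 0.0371, and library 3 no shift. Its shares therefore need not hold for the real libraries. No count model was run on the recovered reads here. Members, gene lists and alternatives were chosen with earlier results of these data known. All members enter the counts. Called members, the 10 highest in FPKM, textbook drug and lipid transporters and neighbours of called members are named with their values, a rule that FLOT1 and FLOT2 join as the check of the labels. Values of some members are not reported here. The scripts used Python 3.11.15 with pandas 2.3.3, numpy 2.4.6 and numba 0.67.0. Plots came from matplotlib 3.10.9. Counting by strand is not stated, so reads of genes that overlap are uncertain.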

Additional observations from a re-analysis of the deposited data

How the results depend on the processing

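The 15 deposited calls among members became 11 in the Tuxedo table, 10 at an adjusted p under 0.01, 13 to 16 in limma with all libraries under other filters, pseudocounts and scalings, 22 without library 3 of both lines and 23 with a term for library 3, which was added after the data were seen. Leaving out 1 library at a time gave 4, 5 and 8 called members in limma without flotillin library 1, 2 or 3, and 7, 6 and 20 without control library 1, 2 or 3. Over all genes, limma called 997, 1137 and 2273 without flotillin library 1, 2 or 3. It called 1724, 1627 and 6401 without control library 1, 2 or 3, beside 3718 (23.4%) with all libraries and no added term. The fits without library 3 of both lines and with its term called 44.2% and 46.0% of all genes. No called member changed sign in any alternative. The median deposited log2 fold change was -0.30 over the 38 tested members, and it was -0.61 in the Tuxedo table, which tested 30. In limma it was -0.48 over 34 members with all libraries, and -0.27 over 46 with no minimum mean. Over the 34 members it was -0.62 with scaling by high genes, and between -0.61 and -0.36 with 1 library left out. These medians cover different sets of members, and the part of that in the shifts was not tested. The 40 calls over the 11 related lists became 26 in the Tuxedo table, 29 in limma with all libraries and, with 1 library left out, 10, 13 and 20 without flotillin library 1, 2 or 3 and 21, 16 and 44 without control library 1, 2 or 3, and the cause of these shifts was not tested. No paired analysis was possible because recovered libraries carry no replicate numbers. Members under about 10 normalized counts are limited by depth, and intervals there would cover counting error only.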

Other observations

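TAP1 and TAP2, the ABC proteins that carry antigenic peptides into the endoplasmic reticulum, both fell in the authors' deposited table. TAP1 averaged 1215 ± 298 normalized counts in flotillin and 3052 ± 733 in control cells (SD, n = 3; DESeq2 adjusted p = 0.000274), and TAP2 averaged 2230 ± 413 and 4428 ± 1239 (SD, n = 3; DESeq2 adjusted p = 0.00742). CFTR, the ABC chloride channel, was listed at 0 in both lines. Of 10 genes of peptide loading and processing 2 fell, ERAP2 and PDIA3, and PSMB10, an immunoproteasome subunit, rose 1.88-fold. Over all tested genes 23.6% were called in the deposited table, so these few calls do not set the list apart. No test of the list itself was made.

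ABCA17P and ABCA11, ABC loci outside the protein-coding set, were near the limit of detection. ABCA17P, a processed transcript, had 6.001, 12.2 and 7.20 normalized counts in flotillin libraries, against 6.64, 3.83 and 2.96 in control libraries. ABCA11, a pseudogene, had 3.0, 4.05 and 12.3 in flotillin libraries, against 11.4, 4.78 and 17.8 in control libraries. Neither was called (DESeq2 adjusted p = 0.455 and 0.529).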
